A study of Mus musculus with 13 samples.

Results

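The genes described here are 9 of the 26720 in the count table, read in splenic regulatory T (Treg) cells: the chemokine receptor gene Ccr6, the transcription factor genes Maf, Rora, Ahr and Stat3, the cytokine receptor genes Il23r and Il1r1, and the membrane protein genes Tmem176a and Tmem176b. They were chosen by name as genes of T helper 17 (Th17) cells and of the Treg cells that share part of the Th17 program. Earlier results of these data were known at that time, so the number of members called is a description. All 9 were found and all passed the filter on low counts. RNA was sequenced from 6 libraries of Foxp3YFPCre/+Stk3∆/∆Stk4∆/∆ mice (called deleted) and 7 libraries of Foxp3YFPCre mice (called control), all CD4+YFP+ spleen cells of mice aged about 4 to 5 weeks. Both groups carry a Cre recombinase and yellow fluorescent protein expressed from the Foxp3 gene. In the deleted group that Cre removes Stk3 and Stk4, which encode the Hippo pathway kinases MST2 and MST1, in cells that express Foxp3. The Cre allele is marked heterozygous in the deleted group, and no zygosity is given for the control group, so Cre dose cannot be told apart from the deletion. Foxp3 lies on the X chromosome, so mice heterozygous for the Cre allele are female. They also hold Treg cells without Cre, which the sort for YFP leaves out. No label states the sex of the mice, and that of the control group is not known. No label ties a library to a mouse, so each p-value covers variation among libraries only.

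Th17 cells make interleukin 17 after interleukin 6 has activated STAT3, and interleukins 23 and 1 maintain the state. Some Treg cells use part of the same program, mostly in the gut, where they carry c-MAF and the chemokine receptor CCR6 together with Foxp3. CCR6 binds the chemokine CCL20 and guides lymphocytes to mucosal and inflamed tissue.

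Ccr6 and Maf were lower in the deleted Treg cells, and none of the other 7 genes passed the test. Ccr6 differed by -1.76 on the log2 scale and Maf by -1.59, while Rora, Stat3, Tmem176a and Tmem176b had negative values that did not pass and Ahr, Il23r and Il1r1 had positive values that did not pass. The test was edgeR's quasi-likelihood F test with Benjamini-Hochberg adjustment over all genes, and a call is an adjusted p under 0.05. Of 24068 genes tested, 8.52% were called lower and 1.66% higher, so 2 of 9 members lower (and 0 higher, also at an unadjusted p under 0.05 and by DESeq2 or limma-voom) is read against that background. Among tested genes with a mean of at least 50 counts per 1000000 counts (CPM), 22.7% were called lower, and among those under 50 mean CPM 4.64% were. Maf and Stat3 are in the first set and the other 7 members, Ccr6 included, in the second, with 1 call in each. In the lower direction 4 members had an unadjusted p under 0.05 by edgeR. The share of all genes at that looser cut is not given here, so this count is not set against 8.52%. DESeq2 called 3 members lower (10.6% of genes called lower) and limma-voom 4 (12.2%).

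Some facts of the whole set bear on these values. Total counts were 2671660 to 4569655 across deleted and 3705511 to 8323919 across control libraries. Reads fell on olfactory receptor (Olfr) genes, the odorant receptors of nasal neurons, in every library, and the median Olfr gene stood at 5.07 ± 1.64 CPM of the total count (SD, n = 6) across deleted and 2.42 ± 0.910 CPM (SD, n = 7) across control libraries (two-sided exact permutation p = 0.00466). Low members are therefore set against the median Olfr gene of their own library, which had 11 to 20 reads across deleted and 11 to 17 across control libraries. Counts were not scaled by gene length, so such a ratio places a gene within its library and does not rank genes against each other. Stk3 (33.4 ± 6.29 CPM across deleted and 33.9 ± 7.52 CPM across control libraries) and Stk4 (170 ± 119 CPM across deleted and 213 ± 56.6 CPM across control libraries) did not pass the test (adjusted p = 0.981 and 0.576 by edgeR), and the counts sum all exons, so an exon deletion need not lower them. For Stk4, deleted replicate 1 stood apart at 391 CPM, above every control library (134 to 291 CPM), while the other 5 deleted libraries were at 57.3 to 203 CPM. Without deleted replicate 1 Ccr6 was at -1.79 (adjusted p = 0.000434 by edgeR), and the value of Maf without it is given with that gene. Foxp3 averaged 43.7 ± 16.2 CPM across deleted and 54.2 ± 12.4 CPM across control libraries (adjusted p = 0.463 by edgeR). Of 7 defining Treg markers, 5 were called lower, with Ctla4 at -1.55, Cd3e at -1.35 and Tnfrsf18 at -1.33 on the log2 scale at the smallest p. The share of counts on Olfr and vomeronasal receptor genes is called the receptor share. With it as a covariate 0 of these 5 calls passed by edgeR, with Ctla4 at -0.52, Cd3e at -0.31 and Tnfrsf18 at -0.29. The receptor share averaged 1.27% across deleted and 0.705% across control libraries (two-sided exact permutation p = 0.00699). Its log2 value had a correlation of 0.69 with genotype, so the covariate also takes up part of a genotype difference. A call lost in that fit therefore cannot be ascribed to either. Group means of the 7 markers were 11.4 to 69.8 times the median Olfr gene in the deleted group and 22.3 to 226 times in the control group.

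The stretches before the annotated start sites of Ccr6, a member called lower, are shown with that of Il23r, a member that did not pass the test. They are from RefSeq on GRCm38.p6 and run 5′ to 3′ on the gene's own strand, from 250 bases before to 50 bases after the start. Ccr6 has a pair of annotated starts, at chr17:8235793-8236092 (plus strand) and chr17:8242276-8242575 (plus strand), and Il23r has 1, at chr6:67491806-67492105 (minus strand). Capitals mark every match, on either strand, to 7 motifs: AGGTCA (core of ROR factors, such as RORα encoded by Rora), GCGTG (the Ahr receptor), TTCNNNGAA (STAT factors), TGCTGA (core of MAF factors), TGTTTAC (forkhead factors), the NF-kB motif and GGAATG (TEAD factors).
Ccr6, first start: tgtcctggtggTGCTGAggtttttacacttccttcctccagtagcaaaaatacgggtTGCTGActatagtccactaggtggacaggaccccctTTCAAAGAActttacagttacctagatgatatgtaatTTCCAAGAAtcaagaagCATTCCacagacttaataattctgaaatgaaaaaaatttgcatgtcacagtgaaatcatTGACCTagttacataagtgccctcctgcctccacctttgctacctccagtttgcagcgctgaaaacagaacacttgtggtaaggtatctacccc
Ccr6, second start: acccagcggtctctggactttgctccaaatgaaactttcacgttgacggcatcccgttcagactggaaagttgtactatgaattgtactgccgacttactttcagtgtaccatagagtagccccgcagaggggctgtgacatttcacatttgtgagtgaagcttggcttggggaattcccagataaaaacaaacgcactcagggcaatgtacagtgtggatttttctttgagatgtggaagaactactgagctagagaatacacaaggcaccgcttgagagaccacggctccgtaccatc
Il23r: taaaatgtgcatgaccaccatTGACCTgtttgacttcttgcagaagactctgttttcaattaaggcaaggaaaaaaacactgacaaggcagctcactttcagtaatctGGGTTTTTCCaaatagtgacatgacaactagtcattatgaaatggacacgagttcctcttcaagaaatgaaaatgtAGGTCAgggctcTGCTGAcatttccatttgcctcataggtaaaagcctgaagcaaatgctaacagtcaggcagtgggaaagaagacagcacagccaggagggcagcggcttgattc

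The first Ccr6 stretch held TGCTGA starting 239 and 193 bases before the start site, TTCNNNGAA at 157 and 120 bases before it, GGAATG on the opposite strand at 103 bases and AGGTCA on the opposite strand at 44 bases before it. The second held no match to the motifs spelled above, nor to the NF-kB motif in the form searched. The NF-kB motif was searched in a single form, which is not spelled out here. Its capitals, matches and background share refer to that form only. Other forms of the NF-kB motif were not searched, so their absence is not shown for any stretch, the second of Ccr6 included. The Il23r stretch held AGGTCA on the opposite strand at 229 bases and on the gene's strand at 66 bases before the start, the NF-kB motif at 142 bases and TGCTGA at 54 bases. No matches overlapped one another. Such matches are common: of 32817 stretches of the same length, 16.3% held AGGTCA, 32.4% GCGTG, 8.29% TTCNNNGAA, 19.5% TGCTGA, 3.65% TGTTTAC, 1.63% the NF-kB motif and 14.7% GGAATG. They describe the letters and do not show binding. Stretches were given for 7 of the 9 members, and those of Maf and Ahr were not used here.

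Ccr6 (gene number 12458; GRCm38 chromosome 17, 8236041 to 8258519) had the fold change farthest from 0 among the members, though its distance from that of Maf was within their SEs and Maf was farther without deleted replicate 1. Its level was 7.91, 16.04 and 25.8 CPM (lowest, median and highest library) in the deleted group, against 43.2, 57.4 and 76.8 CPM in the control group, after scaling by trimmed mean of M values (TMM) factors. The groups did not overlap, which held for 1.45% of all tested genes in the lower direction. Deleted replicates 2 and 3, at 25.8 and 25.7 CPM, were the highest of their group, and deleted replicate 7, at 7.91 CPM, was the lowest. The means were 16.9 ± 7.77 CPM in deleted (SD, n = 6) and 58.0 ± 11.98 CPM in control libraries (SD, n = 7), or -1.76 as a log2 fold change (SE 0.26, 95% interval -2.30 to -1.22, adjusted p = 0.000269 by edgeR).

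In reads, Ccr6 had 28 to 114 counts across deleted and 183 to 342 across control libraries. That was 1.4 to 7.09 times the median Olfr gene in deleted libraries and 14.1 to 29.8 times in control libraries. In deleted replicate 7 only 62.0% of Olfr genes had fewer reads than Ccr6, whereas in every control library at least 99.8% did. The part of Olfr-type reads in the Ccr6 value was not tested beyond these ratios and the 2 fits given next. When the receptor share entered the fit as a covariate, Ccr6 was at -1.70 (SE 0.32, adjusted p = 0.0103 by edgeR), a fit in which 0.233% of tested genes were called lower. Restricted to libraries whose receptor share was 0.7 to 1.4% (5 deleted, 4 control), it was at -1.69 (SE 0.27, adjusted p = 0.00285 by edgeR), where 0.418% of genes were called lower. There the median log2 fold change of tested Olfr and vomeronasal receptor genes was 0.31, so the shares were not matched between the groups. A lower number of cells with Ccr6 and less Ccr6 RNA per cell cannot be told apart in these bulk libraries. The last 1483 bases of the annotated span overlap the long noncoding RNA gene Gm33799, and the strand setting of the counting is not given.

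**Figure D1:**
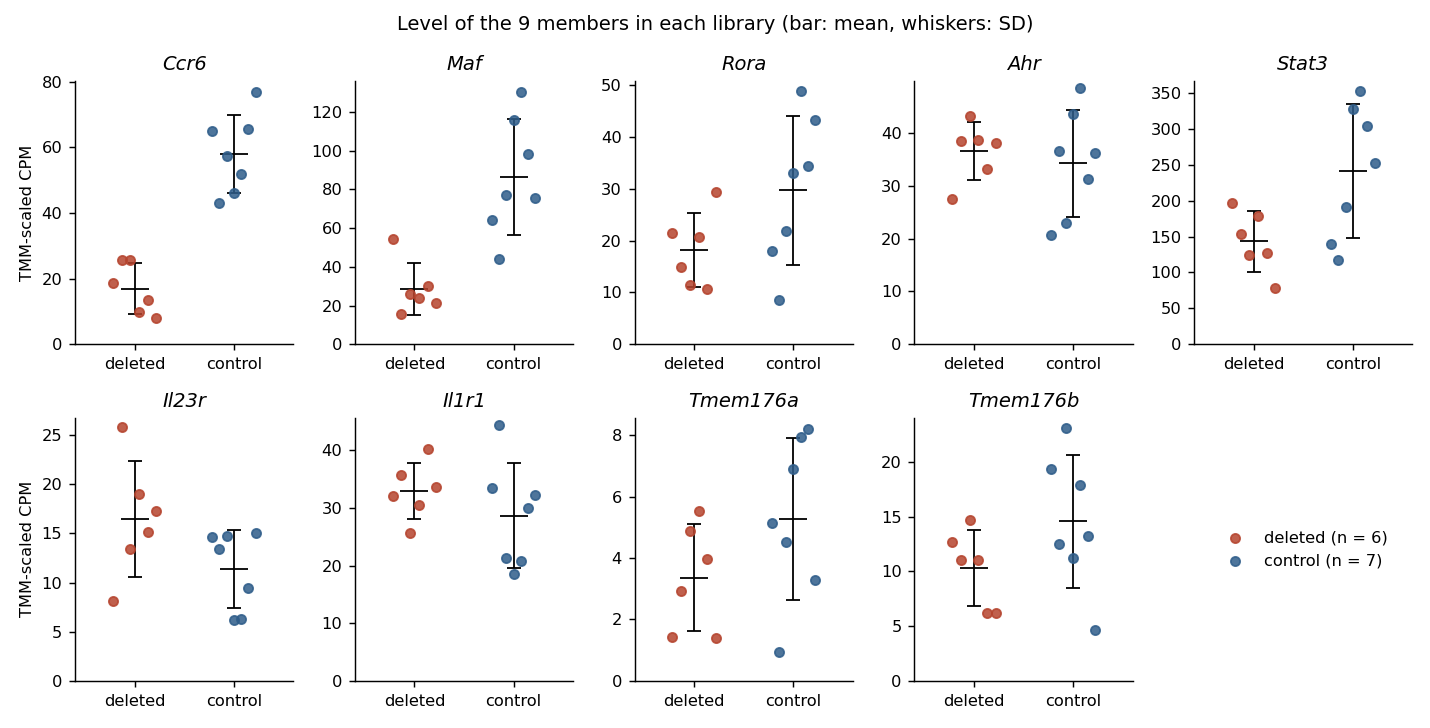
Level of each of the 9 genes in TMM-scaled counts per 1000000 (CPM, linear axis from 0), 1 point per library, with deleted libraries (n = 6) left of control libraries (n = 7), the mean as a bar and the SD as whiskers. The groups are separate for Ccr6 (7.91 to 25.8 CPM across deleted and 43.2 to 76.8 CPM across control libraries), touch in 1 deleted library for Maf, and overlap for the other 7.

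CCR6 is also a receptor of B cells, so B cell transcripts were read beside it. The summed level of 10 B cell markers was 239.8 to 305 CPM across deleted and 457 to 1153 CPM across control libraries, without overlap (two-sided exact permutation p = 0.00117, difference -1.43 log2). The largest part of these sums was Ighm, the immunoglobulin heavy chain mu gene, in the control group, at 84.6 ± 27.3 CPM across deleted and 597 ± 258 CPM across control libraries (log2 fold change -2.81, adjusted p = 1.9e-05 by edgeR). Of the 10 markers, Ighm and Cd79b were called lower, Ms4a1 was called higher and 7 did not pass. With receptor share in the fit Ighm passed (-1.85, adjusted p = 0.000305 by edgeR). Cd79b (-0.50, adjusted p = 0.711) and Ms4a1 (0.31, adjusted p = 0.804 by edgeR) did not. All 10 had reads, from 1.64 times the median Olfr gene in the deleted group and 2.51 times in the control group upward. Without the immunoglobulin genes the summed level was 135 to 201 CPM across deleted and 139 to 208 CPM across control libraries (two-sided exact permutation p = 0.201). With that level as a covariate Ccr6 was at -1.79 (SE 0.31, adjusted p = 0.00221 by edgeR; 3.69% of genes called lower). With the whole list as a covariate, which separates the groups by itself, Ccr6 was at -1.70 (SE 0.56, adjusted p = 0.169 by edgeR) and 0.00% of genes were called lower. The part of B cell RNA in the Ccr6 value was not tested beyond these fits.

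Maf (gene number 17132; chromosome 8, 115703253 to 115706894) encodes c-MAF, a transcription factor of Th17, follicular and interleukin 10-producing T cells. Its level was 15.4, 24.9 and 54.1 CPM (lowest, median and highest) in deleted libraries, against 44.1, 77.3 and 130.3 CPM in control libraries. Only deleted replicate 1 (54.1 CPM) and control replicate 2 (44.1 CPM) crossed, and the other 5 deleted libraries lay below every control library. The means were 28.4 ± 13.5 CPM in deleted (SD, n = 6) and 86.4 ± 30.03 CPM in control libraries (SD, n = 7), or -1.59 as a log2 fold change (SE 0.28, 95% interval -2.16 to -1.02, adjusted p = 0.00137 by edgeR). Without deleted replicate 1 the value was -1.88 (adjusted p = 0.00013 by edgeR; 10.4% of genes called lower).

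Against the median Olfr gene, Maf stood at 3.58 to 20.5 times across deleted and 14.4 to 65.5 times across control libraries. The call for Maf ended with receptor share in the fit, at -0.76 (SE 0.23, adjusted p = 0.224 by edgeR), and among libraries with a receptor share of 0.7 to 1.4%, at -1.12 (SE 0.28, adjusted p = 0.0798 by edgeR). Among genes of at least 50 mean CPM fitted alone, where 13.9% were called lower, Maf was at -1.16 (SE 0.22, adjusted p = 0.00208 by edgeR). Macrophages use c-MAF too, and the summed level of 18 myeloid and dendritic cell markers was 299 to 392 CPM across deleted and 223 to 367 CPM across control libraries, with the higher mean in the deleted group (two-sided exact permutation p = 0.039). That p was 0.0584 to 0.0896 in 10 of the 13 runs with a single library left out. With that level as a covariate Maf was at -1.11 (adjusted p = 0.0746 by edgeR), which did not pass, and Ccr6 at -1.72 (adjusted p = 0.00239 by edgeR), which did, where 0.482% of genes were called lower. Of those markers the dendritic cell genes Xcr1 (0.71) and Clec9a (1.02 on the log2 scale) were called higher and the other 15 tested did not pass. With receptor share in the fit neither passed (Xcr1 at 0.26, adjusted p = 0.842, and Clec9a at 0.71, adjusted p = 0.654 by edgeR). Xcr1 averaged 10.4 times the median Olfr gene across deleted and 10.1 times across control libraries, and Clec9a 3.58 and 2.95 times.

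**Figure D2:**
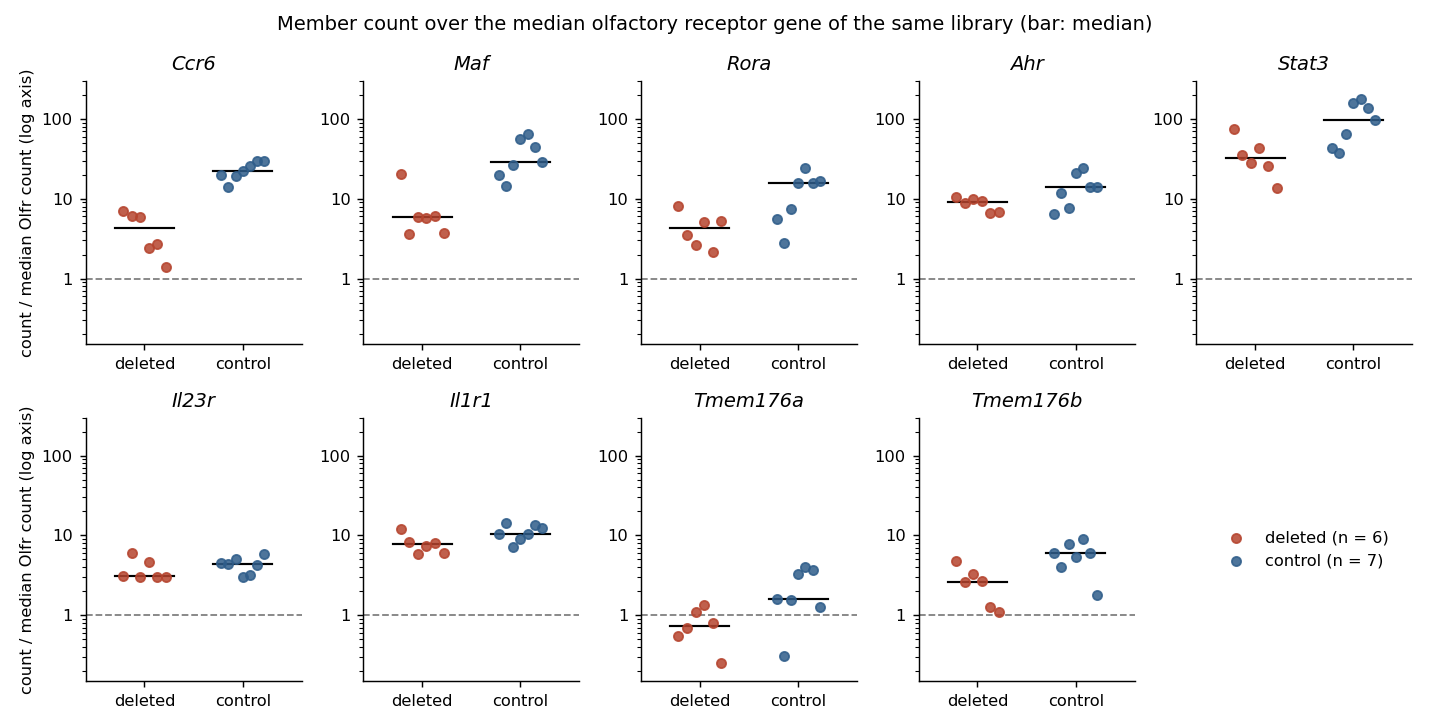
Count of each of the 9 genes divided by the count of the median olfactory receptor gene of the same library (log axis, dashed line at 1), 1 point per library, with deleted libraries (n = 6) left of control libraries (n = 7) and the median as a bar. Ccr6 has medians of 4.27 across deleted and 22.3 across control libraries, and Il23r lies in the same range in both groups (3.05 to 6 across deleted and 3 to 5.82 across control libraries). Tmem176a lies around 1 across deleted libraries (0.25 to 1.35) and at 0.308 to 4.00 across control libraries.

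Stat3 (gene number 20848; chromosome 11, 100886806 to 100939594) encodes the factor that interleukins 6, 21 and 23 activate. Its level was 78.3, 140.6 and 197 CPM (lowest, median and highest) in deleted libraries, against 117, 253 and 353 CPM in control libraries. The groups overlapped, with only deleted replicate 7 below every control library, and control replicates 1, 2 and 3, at 140.1, 117 and 191 CPM, within the deleted range. The log2 fold change was -0.74 (SE 0.28, 95% interval -1.31 to -0.16, adjusted p = 0.0924 by edgeR). Stat3 passed without control replicate 2 (-0.85, adjusted p = 0.0236 by edgeR) or control replicate 1 (-0.83, adjusted p = 0.0497 by edgeR), and by DESeq2 (-0.72, adjusted p = 0.0499) and limma-voom (-0.73, adjusted p = 0.0311). The share of genes called lower was 13.6% and 10.6% in those leave-outs, 10.6% by DESeq2 and 12.2% by limma-voom. With receptor share in the fit its direction turned (0.20, adjusted p = 0.87 by edgeR).

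Rora (gene number 19883; chromosome 9, 68653404 to 69388246) encodes RORα, a nuclear receptor that promotes Th17 cells. It was at 10.7, 17.8 and 29.4 CPM (lowest, median and highest) in deleted libraries, against 8.49, 33.1 and 48.8 CPM in control libraries. The deleted libraries lay within the control range, and control replicate 2 was the lowest of all 13. The log2 fold change was -0.70 (SE 0.32, 95% interval -1.37 to -0.04, adjusted p = 0.167 by edgeR). Without control replicate 2 it was -0.86 (adjusted p = 0.0355 by edgeR), and limma-voom also called it (-0.84, adjusted p = 0.0491). With receptor share in the fit it was at -0.10 (SE 0.43). The span of Rora overlaps 5 annotated long noncoding RNA genes, and that of Stat3 overlaps 1, Gm46295, so that reads could be split there.

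Ahr (gene number 11622; chromosome 12, 35497979 to 35534989) encodes the aryl hydrocarbon receptor, which senses dietary and microbial ligands and promotes interleukin 22. It was at 27.6, 38.3 and 43.3 CPM (lowest, median and highest) in deleted libraries, against 20.7, 36.2 and 48.4 CPM in control libraries. The deleted libraries lay within the control range. The log2 fold change was 0.11 (SE 0.22, adjusted p = 0.794 by edgeR), with a 95% interval of -0.34 to 0.55.

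The receptors of interleukins 23 and 1 were low. Il23r (gene number 209590; chromosome 6, 67422932 to 67491855) was at 8.15, 16.2 and 25.8 CPM (lowest, median and highest) in deleted libraries, against 6.20, 13.4 and 15.02 CPM in control libraries. On this scale 4 deleted libraries lay above every control library, with a log2 fold change of 0.54 (SE 0.30, 95% interval -0.08 to 1.17, adjusted p = 0.264 by edgeR). The median log2 fold change of all tested Olfr and vomeronasal receptor genes was 0.58. As a multiple of the median Olfr gene, Il23r was at 3.05 to 6 across deleted and 3 to 5.82 across control libraries, so the groups covered the same range. Il1r1 (gene number 16177; chromosome 1, 40222480 to 40316201), the signalling receptor of interleukin 1, was at 25.7, 32.9 and 40.2 CPM in deleted libraries, against 18.6, 30.02 and 44.4 CPM in control libraries. All 6 deleted libraries lay within the control range, and the log2 fold change was 0.21 (SE 0.22, 95% interval -0.24 to 0.67, adjusted p = 0.576 by edgeR). Il1r1 stood at 5.83 to 12.2 times the median Olfr gene across deleted and 7.23 to 14.5 times across control libraries.

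Tmem176a (gene number 66058; chromosome 6, 48841483 to 48845364) and Tmem176b (gene number 65963; chromosome 6, 48833811 to 48845948) encode related 4-pass membrane proteins expressed in Th17 cells and in dendritic cells. The annotated span of Tmem176a lies wholly within that of Tmem176b, over 3882 bases on the opposite strand, so their separate counts are uncertain without the strand setting. Tmem176a had 5 to 23 reads across deleted and 4 to 44 across control libraries, or 0.25 to 1.35 times the median Olfr gene across deleted and 0.308 to 4.00 times across control libraries. The deleted libraries thus lay around the median Olfr gene for Tmem176a. Tmem176b was at 6.20, 11.1 and 14.7 CPM (lowest, median and highest) in deleted libraries, against 4.70, 13.2 and 23.1 CPM in control libraries. Control replicate 7 was the lowest of all 13 libraries for Tmem176b, and the groups overlapped. Tmem176b stood at 1.1 to 4.82 times the median Olfr gene across deleted and 1.82 to 9 times across control libraries. The log2 fold changes were -0.64 (SE 0.50, 95% interval -1.66 to 0.39, adjusted p = 0.442 by edgeR) for Tmem176a and -0.48 (SE 0.33, 95% interval -1.16 to 0.19, adjusted p = 0.368 by edgeR) for Tmem176b.

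The 9 fold changes were also set side by side in 4 fits. Scaling by genes of at least 50 mean CPM moved the median of all tested genes up by 0.35, and in it Ccr6 was at -1.41 (adjusted p = 0.00475 by edgeR) and Maf at -1.16 (adjusted p = 0.00338 by edgeR), where 2.84% of genes were called lower. The authors' deposited table gives mean log2 fold changes of -1.79 for Ccr6 and -1.6 for Maf, with mean false discovery rates of 0.000104 and 0.000564. For the other 7 genes the mean false discovery rate in the authors' deposited table was 0.088 (Stat3) to 0.795 (Ahr).

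**Figure D3:**
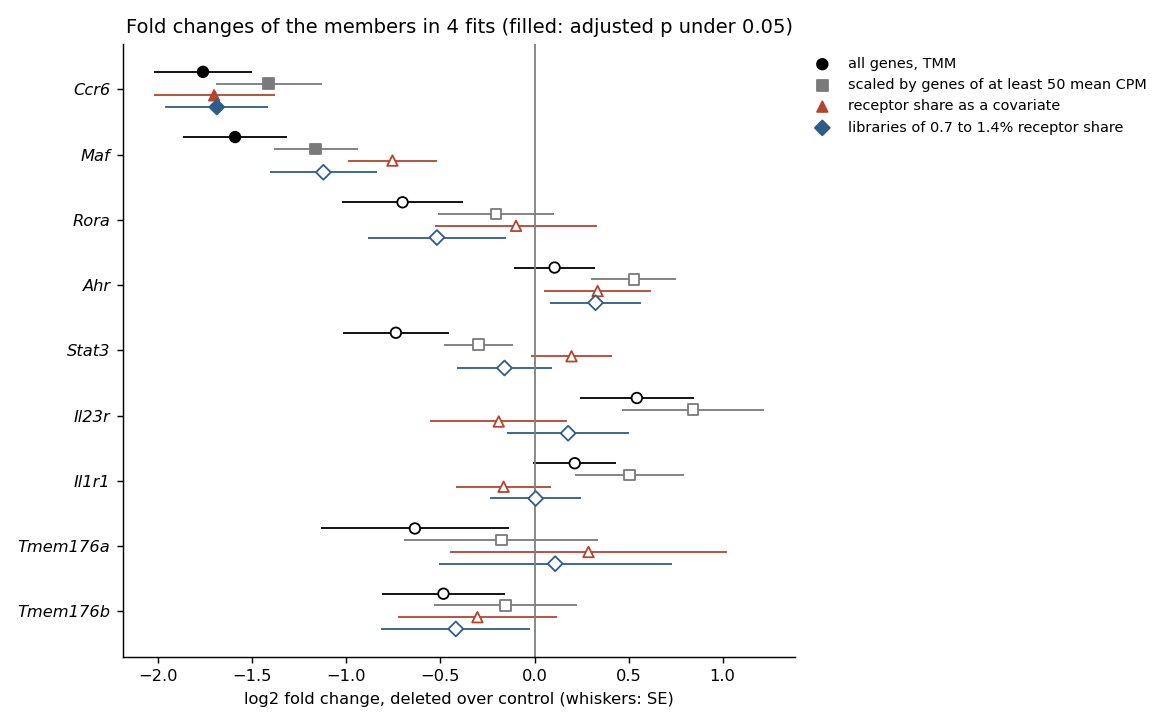
Log2 fold change of deleted over control (points, whiskers are the SE) for the 9 genes in 4 fits, filled where the adjusted p is under 0.05. Ccr6 is filled in all 4 (-1.76, -1.41, -1.70 and -1.69), Maf in the first and second only, and Stat3, Il23r, Il1r1 and Tmem176a change sign in the fit with receptor share as a term.

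The other genes of the Th17 pathway were read from 8 lists, with 73 genes of which 69 could be tested. The lists were drawn up with earlier results of these data known, so their counts are descriptions. Of these, 15 were called lower (21.7%), 0 higher and 54 did not pass, with a median log2 fold change of -0.42, against 0.06 for all genes tested and -0.35 for those of at least 50 mean CPM. At an unadjusted p under 0.05 by edgeR, 2 genes (Il1rap and Cyp1b1) had positive and 28 had negative values. The share of all genes at that looser cut is not given here, so these counts are not set against 8.52%. DESeq2 and limma-voom each called 2 higher. DESeq2 called 20 lower (10.6% of all genes) and limma-voom 25 (12.2% of all genes). Of the 35 list genes of at least 50 mean CPM 8 were called lower, where 22.7% of all such genes were, and of the 34 below it 7 were, where 4.64% were. Over all levels the background was 8.52%. With receptor share in the fit, a covariate that itself differed between the groups, 2 of the 15 genes called lower also passed, Batf and Ccr10.

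Of 13 Th17 transcription factor genes, 12 were tested and 4 were called lower. Batf, which encodes an AP-1 factor needed for Th17 cells in mice, was at 22.7 ± 8.14 CPM across deleted and 112 ± 46.4 CPM across control libraries, and the groups did not overlap (9.32 to 30.5 CPM across deleted and 77.1 to 214 CPM across control libraries). Its log2 fold change was -2.29 (SE 0.28, adjusted p = 3.08e-05 by edgeR), and it also passed with receptor share in the fit (-1.56, adjusted p = 0.00139 by edgeR). Junb (-1.47, adjusted p = 0.00284) and Bhlhe40 (-0.98, adjusted p = 0.00685 by edgeR) were below every control library in all 6 deleted libraries, but neither passed with that covariate.

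Group means of the tested Th17 cytokine genes other than Il10 were 0.789 to 1.74 times the median Olfr gene in the deleted group and 1.44 to 2.46 times in the control group. Of 7 genes, which included the CCR6 ligand gene Ccl20, 6 were tested and only Il10, the gene of an anti-inflammatory cytokine, was called. Il10 was at 3.85 ± 1.79 CPM across deleted and 12.9 ± 8.02 CPM across control libraries, or -1.72 as a log2 fold change (SE 0.44, adjusted p = 0.0165 by edgeR). In deleted libraries Il10 stood at 0.2 to 2.45 times the median Olfr gene and in control libraries at 1.46 to 13.5 times, and it did not pass with receptor share in the fit (-0.24, adjusted p = 0.933 by edgeR). Il17a averaged 1.61 times the median Olfr gene across deleted and 1.96 times across control libraries, and Il22 had 72 reads over all 13 libraries and was not tested.

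Of 12 genes of interleukin 6, 21 and 23 signalling, Il2rg (-1.15, adjusted p = 0.0333) and Il12rb1, the gene of the chain that pairs with the Il23r product (-0.91, adjusted p = 0.0154 by edgeR), were called lower and 10 did not pass. Neither passed with receptor share in the fit, where Il2rg was at -0.08 (adjusted p = 0.965) and Il12rb1 at -0.47 (adjusted p = 0.661 by edgeR). Of 9 genes of interleukin 1 signalling, 4 were called lower. Il1r2, which encodes a decoy receptor for interleukin 1, was at 14.7 ± 4.44 CPM across deleted and 61.2 ± 33.8 CPM across control libraries, without overlap, or -2.04 as a log2 fold change (SE 0.30, adjusted p = 0.000209 by edgeR) that did not pass with receptor share in the fit (-1.17, adjusted p = 0.0617). Myd88, the adaptor (-1.16, adjusted p = 0.00721), and Sigirr, an inhibitory receptor (-0.98, adjusted p = 0.0127 by edgeR), were also lower, and neither passed with receptor share in the fit (-0.40, adjusted p = 0.747 for Myd88 and -0.22, adjusted p = 0.846 for Sigirr). Il1rap, the gene of the chain that pairs with the Il1r1 product, is named after its values were seen and had a positive value that did not pass (0.57, SE 0.20, adjusted p = 0.0666 by edgeR). Among genes of at least 50 mean CPM fitted alone, Il1rap passed as higher (0.92, adjusted p = 0.0118 by edgeR), where 561 of 5153 genes did. With receptor share in the fit Il1rap did not pass (0.52, adjusted p = 0.553 by edgeR).

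Members of the same families were read beside Ahr, Stat3, Maf, Rora and Ccr6. Of 10 Ahr pathway genes 0 were called by edgeR (3 at an unadjusted p under 0.05, 1 called by DESeq2 and 3 by limma-voom), and Cyp1b1, an Ahr target, had the smallest p (0.99, SE 0.33, adjusted p = 0.0569 by edgeR). Cyp1b1 averaged 3.55 times the median Olfr gene across deleted and 2.94 times across control libraries. Of the 6 other STAT genes 1 was called lower by edgeR and 5 did not pass. At an unadjusted p under 0.05 by edgeR 5 of the 6 had negative values. DESeq2 called 4 of them lower (10.6% of all genes) and limma-voom 4 (12.2% of all genes). Of the other Maf and ROR family genes 6 of 8 were tested and 0 were called by edgeR (1 at an unadjusted p under 0.05, 1 called by DESeq2 and 1 by limma-voom), with Mafk at the smallest p (-0.90, adjusted p = 0.06 by edgeR). Of 9 other CC chemokine receptor genes, Ccr8 (-1.57, adjusted p = 0.00268) and Ccr4 (-0.89, adjusted p = 0.0271 by edgeR), both receptors of activated Treg cells, were called lower, as was Ccr10, and 6 did not pass. Ccr10 had 0 to 2 reads across deleted and 5 to 51 across control libraries, and only 2 deleted libraries had any, so no fold is given. With receptor share in the fit Ccr8 (-0.54) and Ccr4 (-0.58) did not pass, whereas Ccr10 (adjusted p = 0.0414 by edgeR) and Ccr6 did; the difference between these receptor genes was not tested.

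**Figure D4:**
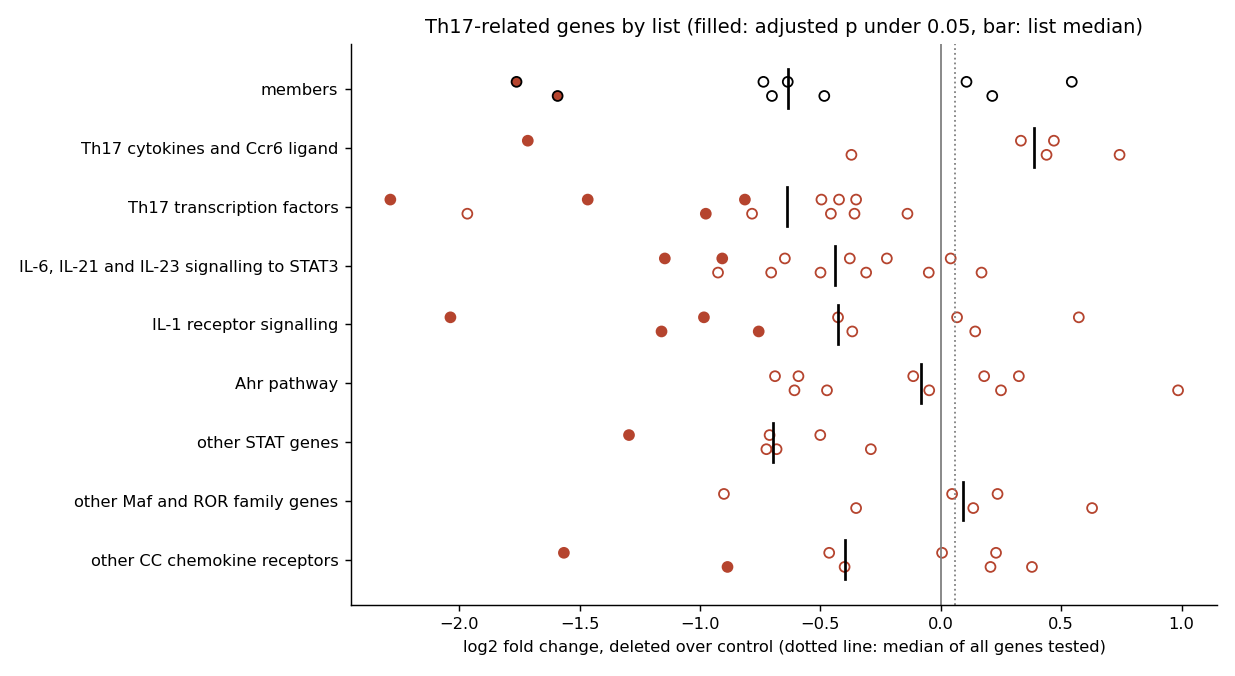
Log2 fold change of deleted over control for the 9 members and for the tested genes of the 8 Th17-related lists (1 point per gene, filled where the adjusted p is under 0.05), with each list's median as a bar and the median of all tested genes as a dotted line; Ccr10, with 0 to 2 reads in deleted libraries, is counted in its list's median but not drawn. Every filled point lies on the lower side, and the list medians run between -0.70 and 0.39.

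The genes whose levels followed Ccr6 and Maf most closely over the 13 libraries were found among 15908 genes (a mean log2 CPM of 3 or more; predicted genes, pseudogenes and antigen receptor segments left out) by the root mean square difference of log2(CPM + 1) values, each gene centred on its own mean. For Ccr6 these were Dcxr, a carbonyl reductase gene, at 0.41, Acads, a fatty acid oxidation gene, at 0.47 and Cbx6, a Polycomb gene, at 0.49, where the median gene was at 1.08. For Maf they were Hcst, which encodes the adaptor DAP10, at 0.23, the ribosomal protein gene Rpl3 at 0.24 and the superoxide dismutase gene Sod1 at 0.26, where the median gene was at 1.004. All 6 were called lower in the deleted libraries, where 8.52% of all tested genes were. The measure includes the group difference, so likeness to a gene called lower favours such a call, and the count is no separate result. Ccr6 and Maf differed from each other by 0.69 on this measure, which was less than the median gene differed from either. Closer genes are likely to be found where the closest of 15908 are picked, so they do not show Ccr6 and Maf to be unlike. The libraries share depth and genotype, and likeness here is a description of these 13 libraries.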

How the data were processed

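Libraries came from SMART-Seq v4 complementary DNA, per the labels' protocols. Per the file headers, the deposited count table gives reads per gene for 13 libraries. The submitters' processing notes list GRCm38 and mm10 as builds and featureCounts 2.0.1, DESeq2 1.26.0 and edgeR 3.28 as tools. Aligner, annotation and strand setting: not given in the sources used here. A second table by the authors, per the file headers, lists log2 fold changes, p-values and false discovery rates of more than 1 tool for deleted over control. Group mean counts, a signal in 4 columns of the deposited tables, were not used. Of 26720 genes, 93.6% matched the RefSeq gene table of GRCm38.p6 by gene number. The 1097 genes without a symbol kept their gene number and held 3.39% of counts.

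After filterByExpr and TMM scaling, a model with genotype alone was fitted by glmQLFit and glmQLFTest (edgeR 4.0.16 in R 4.3.3), with adjustment over 24068 genes. SE is the log2 fold change divided by the root of F. Tested on simulated data (24068 genes, deleted against control), it called 35 of 100 genes set to differ 2-fold, 90 of 100 set to differ 4-fold and 5 unchanged ones. Single values per library were compared by two-sided exact permutation tests over all 1716 splits.

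The members, lists and alternatives were chosen with earlier results of these data known. Named genes were the 9 members, up to 3 called genes of smallest p in each list (or the gene of smallest p where none was called) and the 3 genes most like Ccr6 and Maf; some genes of the lists are not reported here. Among lists of other cells, not described in the results, 3 of 6 tested innate lymphoid markers were called lower (Id2, Cxcr6 and Il7r). The share called lower was 8.52% of all tested genes and 22.7% of those of at least 50 mean CPM. With receptor share in the fit Id2 (adjusted p = 0.198), Cxcr6 (adjusted p = 0.477) and Il7r (adjusted p = 0.848 by edgeR) did not pass. Of CD8 T and natural killer cell markers 0 of 6 were called (smallest p: Klrk1), of erythroid and platelet markers 0 of 5 (Hba-a1) and of myeloid markers 0 of 9 (S100a9). At an unadjusted p under 0.05 by edgeR these 3 lists held 1, 0 and 0 genes, and DESeq2 and limma-voom called 0.

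Alternatives were DESeq2 1.42.0 and its size factors, upper quartile scaling, scaling by genes of at least 50 mean CPM, limma-voom (limma 3.58.1) with sample weights, no filter, 10 CPM in 6 libraries, genes of at least 50 mean CPM only, the log2 receptor share (Olfr and Vmn genes) as a covariate, libraries of 0.7 to 1.4% receptor share, the replicate number as a block, and each library left out. Thinning to 2671660 counts and covariates of other cells' marker levels were added after seeing the data.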

Additional observations from a re-analysis of the deposited data

How the results depend on the processing

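Ccr6 was called lower under all alternatives that tested it except the B cell marker level as a covariate (-1.70, adjusted p = 0.169 by edgeR), with values of -1.41 to -1.85 in those fits and -1.62 to -1.93 with single libraries left out. Maf was not called with the receptor share (-0.76), the B cell level (0.14) or the myeloid and dendritic level (-1.11) as a covariate, nor in libraries of 0.7 to 1.4% receptor share (-1.12). The number of members called lower was 1 with the receptor share or the myeloid and dendritic level as a covariate. It was also 1 in libraries of 0.7 to 1.4% receptor share and among genes of at least 50 mean CPM, which left out Ccr6. It was 0 with the B cell level and 4 by limma-voom, and 2 to 4 with single libraries left out, with 4 called without control replicate 2. Receptor share as a term turned the direction of Stat3 (0.20), Il23r (-0.19), Il1r1 (-0.16) and Tmem176a (0.29). Tmem176a was at 0.11 in libraries of 0.7 to 1.4% receptor share, and Il1r1 at -0.0525 with the myeloid and dendritic level. With the B cell level Rora was at 1.10, Stat3 at 1.11, Il23r at -1.07, Il1r1 at -0.74 and Tmem176a at 1.4. The causes were not tested.

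Over all genes, 400 were higher and 2050 lower. The counts were 761 and 1208 with upper quartile scaling, 1213 and 684 with scaling by genes of at least 50 mean CPM, 54 and 56 with the receptor share, 38 and 101 in libraries of similar receptor share, 2 and 0 with the B cell level, 144 and 888 with that level without immunoglobulin genes, and 37 and 116 with the myeloid and dendritic level. DESeq2 gave 688 higher, limma-voom 1174 higher, and genes of at least 50 mean CPM alone 717 lower. With single libraries left out the counts were 167 to 860 higher and 1034 to 3245 lower. At least 1 of these counts moved by over 1.5 times without deleted replicates 1, 2, 3, 5 or 7 or control replicates 2, 4, 5 or 6. The replicate block gave 118 higher and 734 lower, with Ccr6 at -1.81 (adjusted p = 0.00237 by edgeR) and Maf at -1.59. Same-numbered libraries had correlations of their deviations from the group means of -0.24 to 0.21 over 18916 genes and 0 of 6 correlated best with its own number, so the numbers were not taken as pairs.

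Without immunoglobulin genes the B cell marker difference was 0.16 log2 in place of -1.43. The myeloid and dendritic difference of 0.29 log2 was 0.16 for the myeloid list alone (exact permutation p = 0.368) and 0.23 to 0.35 with single libraries left out, with a p of 0.0584 to 0.0896 in 10 of those 13 runs and under 0.05 only without deleted replicate 2 or control replicates 1 or 2. None of 26 sets of 6 or 7 values had a single library far from the rest, where chance gives about 1.3.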
